A study of Homo sapiens with 12 samples.

Results

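Potassium channel genes were taken here as the protein-coding genes whose symbol begins with KCN on chromosomes 1 to 22 and X in the RefSeq annotation of GRCh38.p14. There were 96 of them among 19974 protein-coding genes, with a summed length of 11.8 Mb. They comprised 40 voltage-gated subunits, 16 inward rectifiers (KCNJ), 15 tandem pore domain channels (KCNK), 8 calcium- or sodium-activated channels and 17 auxiliary or regulatory subunits. Their occupancy was read from CUT&Tag, in which an antibody directs a transposase to chromatin and the released fragments are sequenced. The first antibody was against H3K27me3, histone H3 with 3 methyl groups on lysine 27, and the other against succinylated lysine on any protein (Ksu). The cells were HepG2/C3A, a subline of the HepG2 human hepatocellular carcinoma line, grown in high-glucose medium with serum. Control cells (0 mM) and cells given 10 mM sodium succinate, dissolved in sterile water, were collected after 48 hours. Each antibody and treatment had 2 libraries that the labels call biological replicates, here control 1, control 2, succinate 1 and succinate 2. All libraries came from a single cell line. The 4 IgG samples of the series were not used here, so no peak was set against an antibody background.

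Potassium channels let potassium leave or enter the cell and set the resting membrane potential. The pore is formed by alpha subunits, whose gating by voltage, calcium, nucleotides, pH or stretch differs between families, while auxiliary subunits change trafficking and gating. Most of these genes are used in neurons, muscle, heart, kidney or endocrine cells, and hepatocytes use only a restricted set. H3K27me3 is deposited by Polycomb repressive complex 2 (PRC2) over genes kept silent in a lineage, often as broad domains that begin at CpG-rich starts. Lysine succinylation is made from succinyl-CoA and occurs on histones and on many other proteins. Neither mark measures expression, and no expression data were used here.

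The lists held 40460 H3K27me3 peaks and 1379174 Ksu peaks on these chromosomes, between 5531 and 19131 per H3K27me3 library and between 76623 and 627834 per Ksu library. Read depth is unknown from peak lists, and so no counting intervals are given. The floor of a library is the lowest total signal of any listed peak, counted in steps of that library's signal. The highest floor was 6.36 times the lowest for H3K27me3 and 183 times for Ksu, so libraries were compared by position and covered length. Signal, counted in steps, entered only the alternative at a common floor and the account of the peaks at KCNMB1. With 2 libraries per group, an exact permutation test of a single value cannot give a p below 0.33. No such p is given, and differences are set against the pooled SD of the replicates. The 12 hepatocyte markers examined, among them ALB and APOA1, carried no H3K27me3 peak in any library.

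H3K27me3 lay over potassium channel genes more often than over protein-coding genes in general. A peak overlapped 61, 40, 47 and 40 of the 96 gene bodies in control 1, control 2, succinate 1 and succinate 2. These are 63.5%, 41.7%, 49.0% and 41.7% of the family, beside 23.5%, 13.6%, 19.1% and 15.5% of all genes. Control 1, the library with the most peaks, stood highest, and the other 3 lay close together. In bases, 17.8%, 12.9%, 15.5% and 14.2% of the family's gene length was covered, against 7.09%, 4.61%, 6.32% and 5.32% of all gene length. The ratio of these percentages was 2.51, 2.80, 2.45 and 2.67. It was above 2 in each library and varied little with the number of peaks.

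Potassium channel genes are long, with a median of 39.2 kb against 24.2 kb for all genes, so the same values were read within classes of length. Had each gene been overlapped at the rate of all genes of its class, 25.8, 13.9, 19.6 and 15.3 of the 96 would have carried a peak. Relative to the covered share of the same length classes, the family's covered bases were 3.09-, 3.63-, 3.22- and 3.61-fold higher. In all 4 libraries a peak overlapped 35 of the 96 genes, 36.5%, where the background over all genes is 12.3%. By length class 6 of 20 genes under 10 kb were overlapped in all 4 libraries (30%, all genes 11.01%), and 7 of 25 between 10 and 30 kb (28.0%, all genes 11.9%). Between 30 and 100 kb it was 13 of 21 (61.9%, all genes 12.9%), and between 100 and 300 kb 6 of 13 (46.2%, all genes 13.6%). At 300 kb or more it was 3 of 17 (17.6%, all genes 16.3%). By this count the family stood above its background in every class below 300 kb and near it among the longest genes. In covered bases the members of 300 kb or more, at 8.58%, 5.09%, 5.81% and 5.39%, were also above all genes of that length, at 4.60%, 2.62%, 3.50% and 2.73%.

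**Figure D1:**
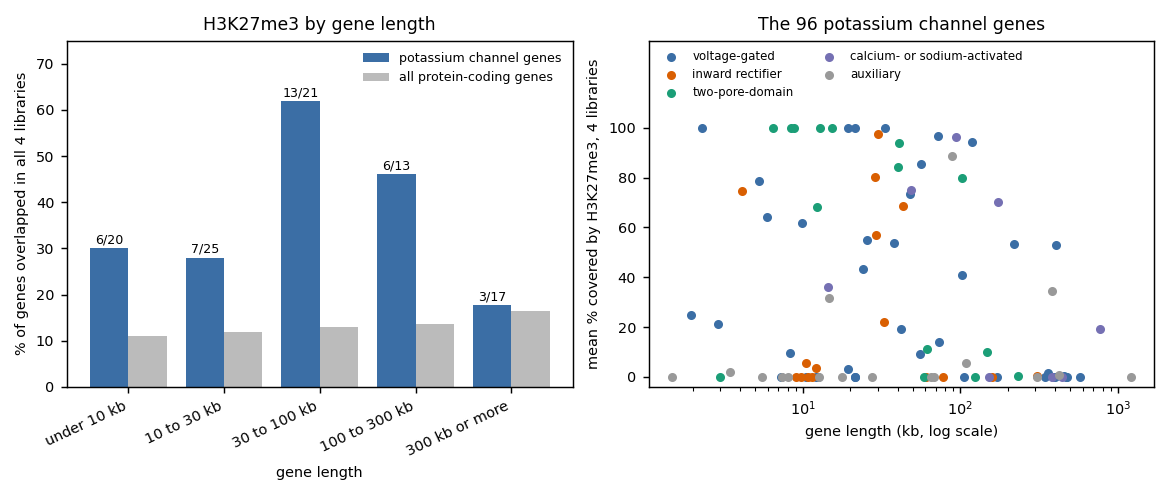
Left, percentage of genes overlapped by an H3K27me3 peak in all 4 libraries (y axis) by class of gene length (x axis), for potassium channel genes (blue, with the count of genes) and all protein-coding genes (grey). Right, mean percentage of the gene body covered over the 4 H3K27me3 libraries (y axis) against gene length in kb (log scale) for the 96 genes, coloured by channel class; genes at 100% are under 40 kb and most genes over 300 kb lie at or near 0.

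The family ranged from genes covered end to end to genes without any peak. Of the 96 genes, 35 were overlapped in all 4 libraries, 26 in 1 to 3, and 35 in none, where 74.9% of all genes were in none. Of the 26, 13 carried a peak in control 1 alone, the library with the lowest floor of the H3K27me3 set (background over all genes 4.94%). They included KCNA5, a channel of the atrial myocardium (84.8% of its body), and KCNA10 (100%). Of these 13, 7 were genes of 100 kb or more, such as KCNQ5, KCNH1 and KCNH5, where the peak covered under 1% of the body. In 8 genes a single H3K27me3 peak ran past both ends of the gene body in each of the 4 libraries. These were KCNF1, KCNG1, KCNG4, KCNH2, KCNK4, KCNK15, KCNK16 and KCNK17. Another 4 genes were overlapped in 2 libraries and 9 in 3. Of the 4, KCNN4, KCNJ18 and KCNQ3 had their peaks in both replicates numbered 1. KCNN4, the intermediate-conductance channel of lymphocytes and epithelia, had 61.5%, 0, 83.1% and 0, so that it was covered in replicate 1 of each treatment and bare in replicate 2. The 9 were KCNA6, KCNH4, KCNH6, KCNJ10, KCNJ11, KCNK6, KCNK10, KCNK12 and KCNS1.

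**Figure D2:**
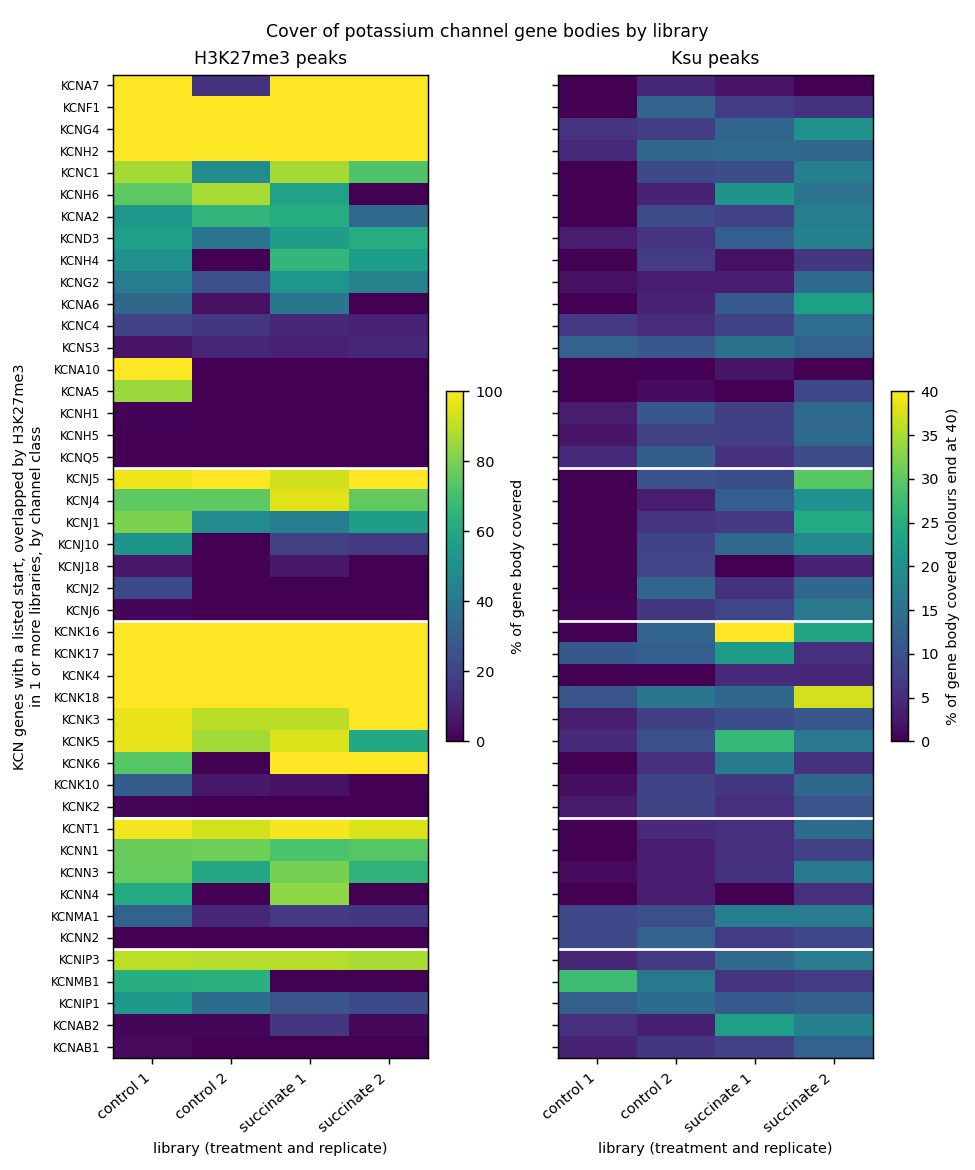
Percentage of the gene body covered by H3K27me3 peaks (left) and Ksu peaks (right; colours end at 40%) in each library (x axis), for the 45 potassium channel genes with a listed gene start that were overlapped by H3K27me3 in 1 or more libraries (y axis). White lines separate, from the top, voltage-gated, inward rectifier, tandem pore domain, calcium- or sodium-activated and auxiliary genes; the H3K27me3 columns resemble each other for most genes at the top of each class (KCNA7 is an exception), and several genes at the bottom are covered in control 1 alone.

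Among the 40 voltage-gated subunits, 16 were overlapped by H3K27me3 in all 4 libraries and 12 in none. KCNH2, at chr7:150944961-150978321, encodes hERG, the channel of the rapid delayed rectifier current of the heart, and was 100% covered in every library. KCNC1, at chr11:17734781-17783057, a channel of fast-spiking neurons, was covered over 86.5%, 48.4%, 86.5% and 72.5% of its 48.3 kb, in the order control 1, control 2, succinate 1, succinate 2. In this gene control 2 was the lowest library, and the groups overlapped.

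Coverage was partial in the longer genes of the same class. KCND3, at chr1:111770662-111989668, carries the transient outward current of heart and neurons and was covered over 56.4%, 38.6%, 55.8% and 61.8% of 219.0 kb. KCNQ1, the pore of the slow delayed rectifier of the heart, had 51.6%, 46.6%, 57.2% and 55.8% of 404.1 kb. Modifier subunits, which alter the channels of other families rather than form a pore alone, ranged from whole to no cover. KCNF1, KCNG1 and KCNG4 were at 100% in every library and KCNG2 at 42.2%, 24.4%, 52.4% and 44.8%, while KCNG3 (105.6 kb), KCNV1 and KCNV2 had no peak. KCNS2 had 56.9%, 59.2%, 56.7% and 83.2%, and KCNS3, 55.1 kb long, only 5.31%, 10.9%, 9.11% and 11.3%. By contrast KCND2, at chr7:120272908-120750337, the sister gene of KCND3, had no H3K27me3 peak over 477.4 kb. KCNB2, 401.1 kb long, had none either, nor did KCNH7 (467.4 kb) and KCNH8 (387.1 kb). KCNA3, KCNA4, KCNC2 and KCND1 also had no peak.

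Among the 16 inward rectifiers, which pass potassium more readily into the cell than out, 4 were overlapped in all libraries and 7 in none. KCNJ5, a G-protein-gated channel of the atrium and adrenal cortex, was covered over 97.3%, 100%, 92.7% and 100% of its body. KCNJ1 beside it, the ROMK channel of the kidney tubule, had 80.3%, 48.1%, 43.1% and 55.8%. KCNJ4 had 75.1%, 75.1%, 95.6% and 75.6%, and KCNJ12 had 70.3%, 67.0%, 67.0% and 70.6%. The treatments overlapped in KCNJ1, KCNJ5 and KCNJ12, and in KCNJ4 succinate 1 alone stood clearly above the rest. KCNJ11, the pore of the ATP-sensitive channel of pancreatic beta cells, had 99.3%, 100% and 100% in control 1, control 2 and succinate 1, and 0 in succinate 2. The 7 without a peak were KCNJ3, KCNJ8, KCNJ9, KCNJ13, KCNJ14, KCNJ15 and KCNJ16.

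The tandem pore domain channels, which carry background potassium currents, had the highest share of any class, with 8 of 15 genes overlapped in all libraries (53.3%) and 3 in none. Their covered bases were 32.0%, 22.1%, 28.1% and 26.3% of the class's length. KCNK3, an acid-sensitive channel at chr2:26692722-26733420, was covered over 96.8%, 89.5%, 89.7% and 100%. KCNK9, its closest relative, had 82.7%, 58.1%, 83.5% and 94.6%, and succinate libraries were both above control libraries by a narrow margin. KCNK18, a channel of sensory neurons, had 99.9% in control 1 and 100% in the others, and KCNK4, a stretch-gated channel, had 100% in each library. KCNK5, KCNK17 and KCNK16 lie within 100 kb of each other on chromosome 6. KCNK16 and KCNK17 were at 100% throughout, and KCNK5 at 96.7%, 86.3%, 94.4% and 60.2%. The 3 genes without a peak were KCNK1, KCNK7 and KCNK13.

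Of the 8 calcium- or sodium-activated channels, 4 were overlapped in all libraries and 2, KCNT2 and KCNU1, in none. KCNT1, a sodium-activated channel of neurons, had 98.3%, 93.2%, 98.4% and 94.7%, and was unlike its paralogue KCNT2, which had no peak over 382.7 kb. The small-conductance channel genes KCNN1 and KCNN3, which follow the action potential with a slow hyperpolarisation, were also covered in all libraries. KCNN1 had 76.9%, 78.01%, 71.7% and 73.8%, and KCNN3 had 76.2%, 60.4%, 79.5% and 65.0%. KCNMA1, at chr10:76869602-77637808, encodes the large-conductance calcium-activated channel and is the longest member with H3K27me3 in all libraries, at 768.2 kb. Its covered share was 31.7%, 11.6%, 17.0% and 16.4%, in 32, 6, 10 and 5 peaks, with control 1 far above the rest.

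Auxiliary subunits were the class with the least H3K27me3, with 3 of 17 genes overlapped in all libraries and 11 in none. The 3 were KCNIP3, KCNIP1 and KCNAB2. KCNIP3, a calcium-binding partner of the channels of the KCND family, had 89.9%, 89.1%, 89.0% and 87.3% of its 88.7 kb covered, with no library apart. KCNAB2 had 1.79%, 1.78%, 15.8% and 2.32%. KCNIP4, at chr4:20728606-21948772, is the longest member at 1220 kb and had no H3K27me3 peak in any library. KCNE1 and KCNE2, single-pass subunits that modify KCNQ1 and KCNH2 channels, lie within 100 kb of each other on chromosome 21 and had none, and neither did KCNE3 or KCNE5, at 1.47 kb the shortest member. KCNAB3, KCNIP2, KCNMB2, KCNMB3, KCNMB4 and KCNRG complete the 11 without a peak.

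Neighbouring genes of the family did not always share a state. On chromosome 1, KCNA2, a channel of axons, had 52.8%, 65.98%, 62.1% and 34.4%, whereas KCNA3, the channel of T lymphocytes, had no peak in any library and KCNA10 had one in control 1 alone. KCNJ10, a glial channel, had 51.6%, 0, 19.3% and 17.2%, and KCNJ9 beside it had none. KCNA6 had 32.9%, 4.64%, 39.4% and 0, and KCNA1 beside it on chromosome 12 had 37.9% in control 1 alone. KCNJ2 on chromosome 17 had 22.4% in control 1 alone, and KCNJ16 beside it had none. Whether 2 neighbours shared a state thus differed from pair to pair. In succinate 1 the longest H3K27me3 peak over the family, 129.1 kb at chr11:17383308-17512380, lay over KCNJ11. The median length of the peaks over KCN genes was 10.2, 20.8, 17.5 and 27.8 kb, and that of the peaks over any protein-coding gene 7.68, 15.6, 12.9 and 18.9 kb. A long peak is more likely to reach a gene, and more so a long gene, so these medians also depend on gene length.

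The start of the gene could be placed for 72 of the 96 genes from the RefSeq promoter table of GRCh38.p14, which gives 15813 genes in all. The start lay inside an H3K27me3 peak for 33, 23, 27 and 24 of the 72 (45.8%, 31.9%, 37.5% and 33.3%). Over all genes in the table it was 15.4%, 8.47%, 12.6% and 10.1%. In all 4 libraries it did so for 20 of the 72, 27.8% against 7.33% of all genes. The CpG dinucleotides (the letters CG, which read the same on both strands) were counted in the 300 bases from 250 before to 50 after the start. CG occurred in 98.1% of all such windows, and 20 or more CG in 55.6% of them and in 48.6% of the 72. By gene body, the median was 28 CG for the 26 genes overlapped by H3K27me3 in all libraries, 22 for 19 genes overlapped in 1 to 3, and 15 for 27 genes overlapped in none. Over all genes the order was not the same, with medians of 18, 18 and 23. Within the family, genes overlapped in all libraries also had a higher median than those overlapped in none when split by length. It was 23.5 CG in 20 genes against 8 in 18 under 100 kb, and 33 in 6 against 21 in 9 for longer genes. The genes overlapped in 1 to 3 libraries are not given by length. These are descriptions of the genes with a listed start, and no test was made of them.

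The 250 bases before the start are printed 5′ to 3′ on the strand of the gene, from RefSeq for GRCh38.p14, with each CG in capitals. The first set shows the 6 genes richest in CG among those whose start lay in H3K27me3 in all 4 libraries. It holds 46, 44, 44, 36, 29 and 27 CG in this stretch. The listed start of KCNIP3 lies 49.3 kb inside its gene body, and the other starts printed are at the end of theirs.
KCNMA1, chr10:77637809-77638058, minus strand: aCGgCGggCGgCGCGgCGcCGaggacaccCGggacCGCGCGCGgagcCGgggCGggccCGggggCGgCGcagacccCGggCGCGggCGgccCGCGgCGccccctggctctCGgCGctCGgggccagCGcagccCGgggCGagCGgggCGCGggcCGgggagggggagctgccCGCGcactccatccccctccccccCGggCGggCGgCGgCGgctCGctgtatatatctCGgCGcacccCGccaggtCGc
KCND3, chr1:111989669-111989918, minus strand: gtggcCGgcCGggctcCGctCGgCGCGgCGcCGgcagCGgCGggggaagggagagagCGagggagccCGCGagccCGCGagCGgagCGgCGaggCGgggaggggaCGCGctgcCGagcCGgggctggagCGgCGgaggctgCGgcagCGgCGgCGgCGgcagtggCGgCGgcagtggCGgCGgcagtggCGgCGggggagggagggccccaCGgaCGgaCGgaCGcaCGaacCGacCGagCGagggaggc
KCNIP3, chr2:95346408-95346657, plus strand: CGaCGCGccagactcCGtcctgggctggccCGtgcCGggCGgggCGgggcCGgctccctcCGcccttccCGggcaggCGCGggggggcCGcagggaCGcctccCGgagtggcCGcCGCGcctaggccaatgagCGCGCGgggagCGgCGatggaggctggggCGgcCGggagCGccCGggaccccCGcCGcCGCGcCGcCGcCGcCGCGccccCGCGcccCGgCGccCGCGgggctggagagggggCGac
KCNC1, chr11:17734531-17734780, plus strand: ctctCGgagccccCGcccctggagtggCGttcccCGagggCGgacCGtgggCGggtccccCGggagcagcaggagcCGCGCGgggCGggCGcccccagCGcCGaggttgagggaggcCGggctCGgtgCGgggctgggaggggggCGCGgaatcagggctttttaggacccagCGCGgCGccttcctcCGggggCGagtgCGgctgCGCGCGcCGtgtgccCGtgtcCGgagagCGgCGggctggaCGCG
KCNH2, chr7:150978322-150978571, minus strand: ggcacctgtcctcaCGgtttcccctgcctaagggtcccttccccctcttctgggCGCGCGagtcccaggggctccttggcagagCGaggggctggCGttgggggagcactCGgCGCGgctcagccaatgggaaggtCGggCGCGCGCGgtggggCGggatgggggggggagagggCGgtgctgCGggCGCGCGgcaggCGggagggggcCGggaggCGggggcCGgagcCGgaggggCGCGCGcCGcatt
KCNK3, chr2:26692472-26692721, plus strand: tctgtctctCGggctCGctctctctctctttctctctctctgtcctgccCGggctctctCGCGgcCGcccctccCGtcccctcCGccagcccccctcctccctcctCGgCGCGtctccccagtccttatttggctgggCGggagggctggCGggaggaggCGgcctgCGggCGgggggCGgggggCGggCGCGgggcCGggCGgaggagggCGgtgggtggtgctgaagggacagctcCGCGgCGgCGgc
For contrast, 2 of the 3 genes that share the fewest CG among those without any H3K27me3 peak are shown, the other being KCNRG. KCNE2 modifies delayed rectifier channels, KCNJ13 is an inward rectifier of the retinal pigment epithelium and of other epithelia, and each had 1 CG.
KCNE2, chr21:34363756-34364005, plus strand: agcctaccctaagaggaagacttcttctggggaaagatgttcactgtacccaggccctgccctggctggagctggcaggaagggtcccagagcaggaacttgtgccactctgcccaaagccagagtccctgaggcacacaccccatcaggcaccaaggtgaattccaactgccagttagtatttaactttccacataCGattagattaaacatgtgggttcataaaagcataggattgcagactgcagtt
KCNJ13, chr2:232776566-232776815, minus strand: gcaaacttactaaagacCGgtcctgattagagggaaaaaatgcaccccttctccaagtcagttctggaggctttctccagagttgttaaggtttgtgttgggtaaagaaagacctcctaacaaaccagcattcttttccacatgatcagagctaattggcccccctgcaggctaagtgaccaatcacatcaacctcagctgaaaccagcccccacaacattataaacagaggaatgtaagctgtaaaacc
CG content and H3K27me3 did not go together in every gene. KCNK16, KCNG4 and KCNJ4 had 4, 6 and 4 CG in the 300 bases and a start in H3K27me3 in all libraries. KCNA3, KCNA4 and KCNG3 had 37, 37 and 49 CG and no H3K27me3 peak.

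**Figure D3:**
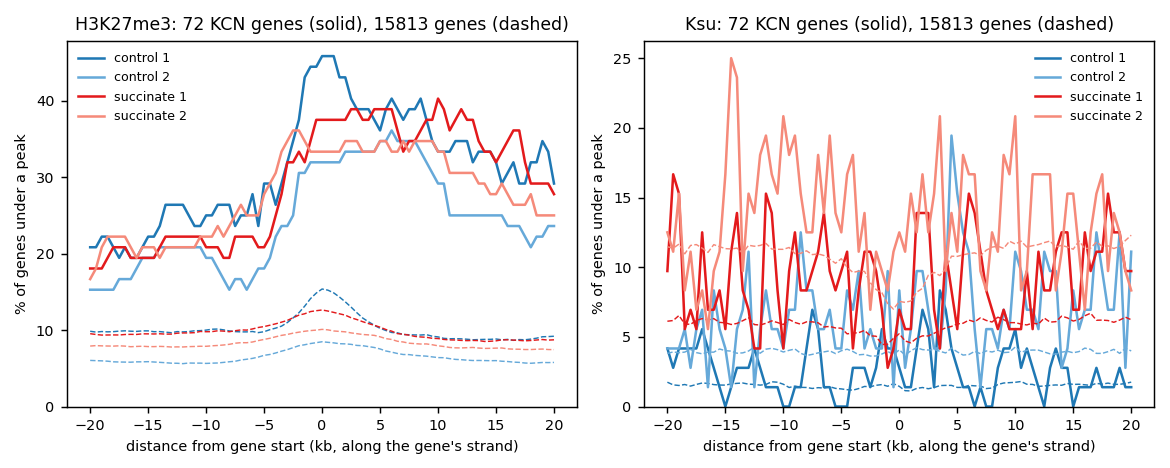
Percentage of gene starts and flanking positions under a peak (y axis) by distance from the gene start along the gene's strand (x axis, kb), for H3K27me3 (left) and Ksu (right), in each library; solid lines are the 72 potassium channel genes with a listed start and dashed lines all 15813 genes. The solid H3K27me3 lines lie above the dashed lines over the whole 20 kb on either side and are higher at 5 kb after the start than at 5 kb before it, whereas the solid Ksu lines show no peak at the start.

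Around these starts the H3K27me3 profile was asymmetric. At 5 kb before the start 29.2%, 18.1%, 20.8% and 27.8% of the 72 genes were under a peak, and at 5 kb after it 36.1%, 34.7%, 38.9% and 34.7%. At this distance all 4 libraries were higher on the side of the gene body. Closer to the start this did not hold in succinate 2, which had 36.1% at 2.5 kb before the start and 34.7% at 2.5 kb after it. Over all genes the 2 sides differed by less than 1 percentage point in each library, with 9.79%, 6.70%, 10.5% and 8.78% before and 10.2%, 7.53%, 10.4% and 9.12% after. Ksu peaks held the start of 2, 6, 5 and 9 of the 72 genes (2.78%, 8.33%, 6.94% and 12.5%). Over all genes with a listed start it was 1.45%, 4.07%, 5.22% and 7.54%. No start of the family lay in a Ksu peak in all 4 libraries, and over all 15813 genes 1 did.

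The first comparison of treatments asked whether succinate altered H3K27me3 over these genes. Control libraries overlapped 50.5 ± 14.8 of them and succinate libraries 43.5 ± 4.95 (SD, n = 2 each), a difference of -7 against a pooled SD of 11.1. Covered bases were 15.3% ± 3.48 and 14.8% ± 0.908 (SD, n = 2 each), a difference of -0.503 points against a pooled SD of 2.54. Relative to all gene bodies, on the log2 scale, cover was 1.41 ± 0.11 in control and 1.36 ± 0.09 in succinate (SD, n = 2 each), a difference of -0.05. Each of these differences was smaller than the spread between replicates, and the groups overlapped. At a common floor the differences turned to 3.5 genes (pooled SD 1.80) and 2.18 points (pooled SD 0.465). In both of these the groups did not overlap, with succinate higher. Without control 1 the differences were 3.5 genes and 1.96 points. The common floor kept 3514 of 19131 peaks in control 1, 3581 of 5813 in control 2 and 4672 of 9985 in succinate 1. Succinate 2, whose floor it is, kept all 5531. The log2 ratio differed by -0.17 at a common floor (pooled SD 0.01) and by -0.13 with equal numbers of peaks (pooled SD 0.03), and in both the groups did not overlap, with succinate lower. Against gene bodies of the same length classes, with all peaks, the log2 difference was 0.03 (pooled SD 0.14), and the groups overlapped.

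For single genes, the percentage covered was tested as log2(percent + 1) with limma over all genes covered in 2 or more libraries, with Benjamini-Hochberg adjustment. For H3K27me3, 48 of the 96 KCN genes reached this cover, among 3790 genes tested, and 0 passed an adjusted p of 0.05, where the background over all genes was 0.422%. At an unadjusted p under 0.05 there were 2, KCNMB1 and KCNN1 (background 4.88%). In the fit without control 1, 4 of 44 rose (KCNK6, KCNA7, KCNH4 and KCNJ10; background 13.7%), and without control 2, 1 of 47 (KCNK6; background 4.56%). None of these counts was above its background share. Groups did not overlap in 8 genes higher after succinate (background 3.72%), among them KCNAB2, KCNG2, KCNH4, KCNJ4, KCNK6, KCNK9 and KCNQ1. They did not overlap in 7 genes higher in control (background 1.14%), namely KCNC4, KCNH6, KCNIP1, KCNIP3, KCNK10, KCNMB1 and KCNN1. Both backgrounds are over all protein-coding genes. A gene without a peak in any library cannot separate, and such genes were 36.5% of the family and 74.9% of all genes. The 2 counts are therefore not read as an excess. The gap between the nearest libraries of the groups was over 5 points in KCNH4, KCNK6, KCNH6, KCNIP1 and KCNMB1, and under 5 points in the other 10.

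The largest differences came from genes present in some libraries and absent from others. KCNK6, a background channel, was covered over 73.5%, 0, 100% and 100%. KCNH4 had 50.7%, 0, 66.4% and 56.1%, and KCNS1, a modifier subunit of sensory neurons, 90.9%, 0, 100% and 55.8%. In these 3 genes control 2 was the library without a peak, and control 1 resembled the succinate libraries. KCNA7 had 100%, 14.7%, 100% and 100%, again with control 2 apart. KCNH6 had 74.8%, 87.0%, 57.6% and 0, and there succinate 2 was the library without a peak. A common floor kept fewer peaks in the controls, 3514 and 3581, than in the succinate libraries, 4672 and 5531. At that floor KCNK6, KCNH4 and KCNS1 were at 0 in both controls and covered in both succinate libraries. KCNH6 was covered in both controls and at 0 in both succinate libraries. Under that setting limma called these 4 genes, with adjusted p = 1.79e-05 for KCNK6, 6.93e-04 for KCNH4, 0.00905 for KCNS1 and 4.81e-04 for KCNH6. They were 4 of 38 members tested, where the background at that floor was 17.9%. Each of the 4 had 0 in both libraries of a group, so these p-values reflect presence and absence at the floor and no spread in that group. With equal numbers of peaks control 1 kept its cover of KCNK6 and KCNS1. The limma adjusted p of KCNK6 was then 0.714 and KCNS1 was not called, while that of KCNH4 was 0.00115 and that of KCNH6 8.45e-04 (background 10.2%). The adjusted p of KCNK6, KCNH4 and KCNH6 was 1.00 with all peaks.

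KCNMB1 was the only gene of the family overlapped by H3K27me3 in both controls and in neither succinate library, a pattern with a background of 0.145%. The reverse pattern was found in 0 genes of the family (background 0.28%). Both backgrounds are over all genes, 74.9% of which had no H3K27me3 peak in any library. KCNMB1, at chr5:170374671-170389367, encodes the beta subunit that tunes the calcium sensitivity of the KCNMA1 channel in smooth muscle. It was covered over 63.0% and 63.8% in the controls (63.4% ± 0.534, SD, n = 2) and 0 in both succinate libraries. The log2 difference was -6.01 (SE 0.40), with a limma adjusted p of 0.0821, and over the alternatives in which it was tested the adjusted p ranged from 1.36e-04, with equal numbers of peaks, to 1.00, without succinate 2. The peaks were at chr5:170380109-170394568 in control 1 and chr5:170379998-170393607 in control 2. In steps, their total signals of 313950 and 343809 lay on either side of the highest floor of the 4 libraries, 330250, which is that of succinate 2. The floor of succinate 1 was 132374, below both. At the common floor the gene was covered in control 2 alone, and with 5 kb added on each side of the gene body a succinate 1 peak that ends at position 170373475 also counted, so that the pattern was lost.

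KCNMB1 lies inside KCNIP1, at chr5:170353487-170736632, which encodes another calcium-binding partner of the KCND channels, and a peak in the shared stretch cannot be assigned to either gene. KCNIP1 itself was covered over 53.2% and 35.2% in control (44.2% ± 12.7, SD, n = 2) and 26.4% and 22.4% after succinate (24.4% ± 2.83, SD, n = 2). The groups did not overlap, and the limma log2 difference was -0.81 (SE 0.44, adjusted p = 1.00). It was covered by 15 and 6 peaks in control and 7 and 6 after succinate. Ksu moved the same way in KCNMB1, with 27.6% and 16.1% in control and 6.11% and 6.96% after succinate, and the log2 difference was -1.56 (SE 0.54, limma adjusted p = 0.272). In KCNIP1 as a whole Ksu cover was 12.1%, 14.2%, 11.4% and 12.2%, and the groups overlapped.

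**Figure D4:**
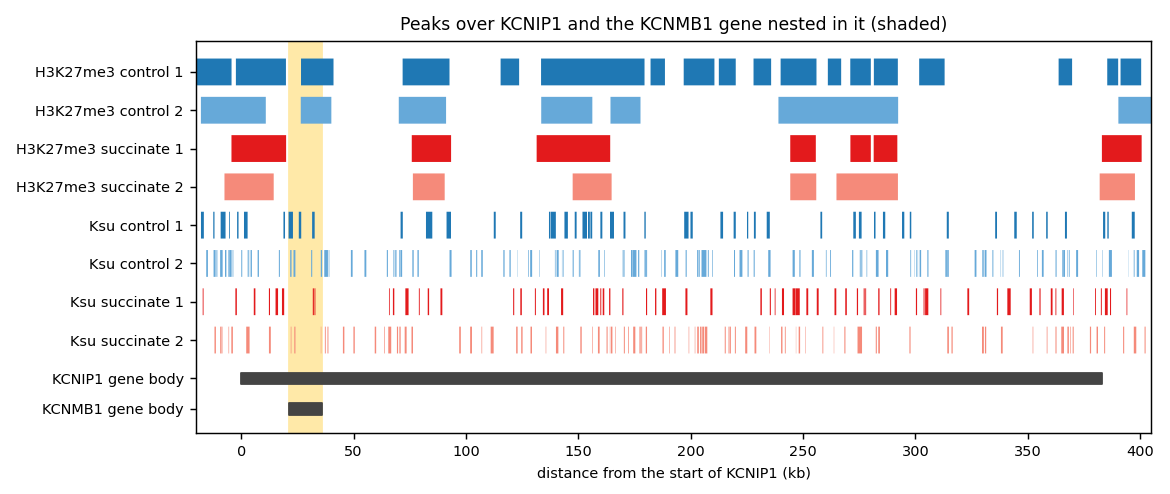
Peaks of the 8 libraries (rows, a colour per treatment and replicate, the same for both antibodies) along KCNIP1 by distance from its start (x axis, kb), with the gene bodies of KCNIP1 and KCNMB1 in grey and KCNMB1 shaded. The H3K27me3 peak over KCNMB1 is drawn in both control rows and in neither succinate row, and the other H3K27me3 peaks of the succinate rows all have a counterpart in control 1.

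Ksu peaks were short and scattered and reached most of the family. They overlapped 55, 86, 81 and 88 of the 96 genes, beside 34.9%, 71.2%, 72.4% and 84.6% of all genes. At the rate of all genes of the same length classes, 43.8, 73.9, 74.98 and 84.6 of the 96 would have been overlapped. The family thus stood above its length classes in each library, by least in succinate 2. In all 4 libraries they overlapped 52 genes (54.2%), where the background over all genes, not adjusted for length, is 31.8%. All 13 genes of 100 to 300 kb and all 17 of 300 kb or more were among the 52, where 81.4% and 98.4% of all genes of these lengths were overlapped in all libraries. KCND1, KCNE5 and KCNJ11 had no Ksu peak in any library. KCND1 and KCNE5 lie on chromosome X, where genes as a whole had 0.295%, 2.69%, 1.36% and 5.00% of their bases under Ksu. The genes with the most Ksu among those overlapped in all libraries included KCNE4, KCNG1, KCNS1, KCNK12 and KCNK18. KCNE4, a subunit that inhibits KCNQ1, is 3.45 kb long and had 12.6%, 24.97%, 24.9% and 84.8%, with succinate 2 far above the rest. KCNG1 had 20.9%, 11.9%, 22.2% and 23.4%. KCNS1 had 34.6%, 4.46%, 40.2% and 7.21%, high in both replicates numbered 1 and low in both numbered 2.

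The second comparison asked whether Ksu over these genes differed after succinate. Covered bases of the family were 4.18% and 9.01% in control (6.59% ± 3.41, SD, n = 2) and 8.36% and 12.8% after succinate (10.6% ± 3.15, SD, n = 2). The difference of 3.997 points compared with a pooled SD of 3.28, and the groups overlapped. With equal numbers of peaks in each library the difference turned to -0.44 points, and at a common floor to -0.24. All gene bodies had 2.46%, 5.61%, 6.73% and 12.1%, so the family stood 1.70-, 1.60-, 1.24- and 1.06-fold above all genes. On the log2 scale this ratio was 0.72 ± 0.06 in control and 0.20 ± 0.17 after succinate (SD, n = 2 each). The difference of -0.53 exceeded the pooled SD of 0.12 and the groups did not overlap. When each replicate was left out in turn it ranged from -0.64 to -0.41. Against gene bodies of the same length classes the ratios were 1.36, 1.31, 1.20 and 1.06, and the log2 difference was -0.24 (pooled SD 0.09), again without overlap. The order of the ratios was the reverse of the order of cover over all genes. With equal numbers of peaks in each library the difference against all gene bodies was -0.50, and at a common floor -0.45. The common floor left control 2 with 2523 of its 380707 Ksu peaks, whereas control 1 kept all 76623. Control 2 then covered 0.16% of the family's bases, so values at that floor rest on few peaks in this library.

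**Figure D5:**
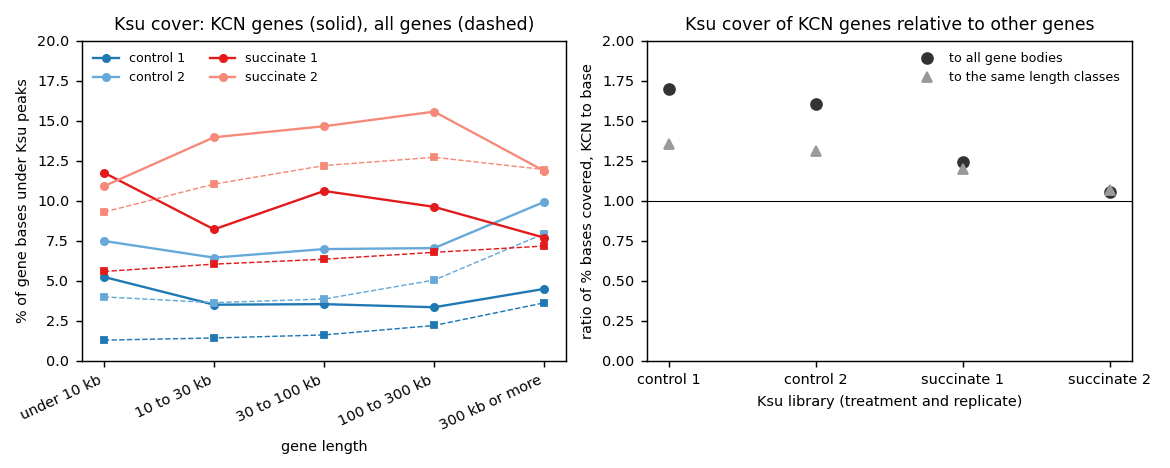
Left, percentage of gene bases under Ksu peaks (y axis) by class of gene length (x axis) in each library, for potassium channel genes (solid) and all protein-coding genes (dashed). Right, ratio of the percentage covered in potassium channel genes to that of all gene bodies (circles) or of the same length classes (triangles) in each Ksu library (x axis); the line marks a ratio of 1, and both series fall from control 1 to succinate 2.

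Below 300 kb the family had more Ksu than all genes of the same class in each library. Genes between 30 and 100 kb had 3.54%, 6.98%, 10.6% and 14.7%, against 1.62%, 3.86%, 6.35% and 12.2% of all genes of that length. Genes of 300 kb or more had 4.49%, 9.93%, 7.69% and 11.9%, against 3.62%, 7.95%, 7.17% and 11.95%, so in succinate 2 the longest members no longer exceeded their class. In this longest class both replicates numbered 2 were above both replicates numbered 1, in the family and over all genes alike. Some of the longest members without H3K27me3 showed the same order by replicate number. KCNIP4 had 2.64%, 11.6%, 5.91% and 11.7%, KCND2 2.02%, 10.2%, 4.47% and 7.72%, and KCNH8 4.005%, 10.8%, 3.96% and 8.02%. In each of these 3 both replicates numbered 2 were above both replicates numbered 1, and the treatments overlapped. KCNH7 did not follow this order, with 4.93%, 8.98%, 9.78% and 15.2%, and there both succinate libraries were above both controls.

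No single gene passed the test for Ksu. Limma tested 89 KCN genes among 15723, 0 passed an adjusted p of 0.05 (background 0%), and 12 had an unadjusted p under 0.05 (background 17.8%). The median log2 difference was 0.93 in the 89 genes and 1.56 over all genes tested. Without control 2, 14 of 79 genes of the family passed upward, KCNK16 and KCNH6 among them, at the background share of 17.8%, and 1, KCNK15, downward (background 0.39%). Without succinate 1, KCNE4 alone passed, with an adjusted p of 0.0295 and a log2 difference of 2.19 (background 0.108%). Groups did not overlap in 42 genes higher after succinate, 43.8% of the family, which is near the background of 46.8%. They did not overlap in 2 genes higher in control, KCNMB1 and KCNN2 (background 0.486%). KCNN2, a small-conductance channel, had 8.73%, 12.5%, 6.98% and 8.61%, a gap of less than 1 point. Only KCNK4 was overlapped in both succinate libraries and in neither control, where the background was 7.65%, with 4.89% and 4.63%, and 0 genes had the reverse pattern (background 0.1%).

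The smallest limma adjusted p of the family for Ksu was 0.272 and was shared by several genes, KCNAB2 and KCNH6 among them. KCNAB2, a beta subunit with a reductase fold, had 5.46%, 3.44%, 22.6% and 17.5%, a log2 difference of 1.97 (SE 0.61). KCNH6 had 0, 3.99%, 20.7% and 15.3%, and KCNK16 0, 13.1%, 50.7% and 23.4% (limma adjusted p = 0.275). In these 3 genes the succinate libraries were above the controls, and of them KCNK16 was under H3K27me3 from end to end throughout. KCNMA1 had 8.58%, 9.74%, 17.1% and 16.9% (control 9.16% ± 0.819, succinate 17.0% ± 0.134, SD, n = 2 each), a difference of 7.80 points without overlap. In the other direction KCNK15 had 27.4%, 0, 0.806% and 0, KCNK7 0, 24.7%, 0 and 0, and KCNA1 0, 24.99%, 4.38% and 8.68%, each resting on a single control library.

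The third comparison set both marks side by side in libraries of the same treatment and replicate number. Of the bases under H3K27me3 in potassium channel genes, 5.39% and 8.29% were also under Ksu in control 1 and control 2, and 12.4% and 15.9% in succinate 1 and succinate 2. The difference of 7.30 points compared with a pooled SD of 2.28, and the groups did not overlap. Over all genes the same share was 4.18%, 6.91%, 12.4% and 16.1%, also without overlap. The other bases of the same genes had 3.92%, 9.11%, 7.63% and 12.3%, where the groups overlapped. The ratio of the first to the second was 1.37, 0.910, 1.62 and 1.29, and over all genes it was 1.79, 1.24, 1.96 and 1.36, higher in each pair of libraries. With equal numbers of peaks the difference in the family shrank to 1.90 points (pooled SD 1.45), and at a common floor to 1.33 (pooled SD 2.38). Grouped by gene, those under H3K27me3 in all libraries had 5.45%, 7.79%, 12.4% and 15.7% of their bases under Ksu, and those without H3K27me3 had 3.28%, 9.50%, 6.04% and 11.3%. In the first group both succinate libraries were above both controls, and in the second the treatments overlapped. The medians over genes were 3.37%, 7.61%, 9.63% and 16.1% in the first group and 1.09%, 6.63%, 5.20% and 10.1% in the second. By bases the first group was lower in control 2, and by median it was higher in each library.

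Genes that work with potassium channels, or resemble them, gave the following counts. Of 10 partner genes, 4 were overlapped by H3K27me3 in all libraries and 1, ABCC9, in none. The 4 were ABCC8, which forms the ATP-sensitive channel with KCNJ11, DPP6, which associates with KCND channels, and LRRC26 and LRRC38, which modulate the KCNMA1 channel. Of 13 voltage-gated sodium channel subunits, 5 were overlapped in all libraries and 5 in none. Of 26 voltage-gated calcium channel subunits, 17 were overlapped in all libraries (65.4%) and 2 in none, with 29.3%, 19.4%, 27.2% and 24.3% of their bases covered. Of 4 HCN channels, 2 were overlapped in all libraries. The potassium channel share of 36.5% was therefore close to that of the sodium channels (38.5%) and below that of the calcium channels. The median gene length was 39.2 kb for the potassium, 116.5 kb for the sodium and 112.5 kb for the calcium channels. No test of these differences was made. Of the other markers examined, 1 of 3 pluripotency genes, 2 of 8 neuronal genes and 1 of 4 blood genes were overlapped in all libraries.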

How the data were processed

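H3K27me3 and Ksu peaks of 8 CUT&Tag libraries were analysed. The deposited lists give, for each peak, its coordinates, total signal, highest signal and the place of the highest signal. Each list belongs to a single library. The authors used SEACR and build hg38, per the submitters' processing notes, and the mode is stringent, per the deposited lists' names. The aligner, the scaling of the signal and the threshold are not given in the sources used here. In every library, 100% of the highest signals were whole multiples of a step within 0.02, and the step differed between libraries, so signal was compared only in steps, in setting the common floor and at KCNMB1.

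Gene bodies came from RefSeq (GRCh38.p14), gene starts from the RefSeq promoter table. A gene was overlapped when a peak shared 1 bp with it. Cover is the percentage of bases under peaks. Limma 3.58.1 (R 4.3.3; trend, no covariate) was fitted to log2(percent + 1) per antibody over all genes covered in 2 or more libraries, with calls at an adjusted p below 0.05. The fit was also run on simulated normal noise with an SD below the observed median. That noise had no zeros and no unequal floors, so the run does not test the fit on lists like these. Other values were computed with Python 3.11.15, numpy 2.4.6 and pandas 2.3.3.

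Named genes are those with the highest H3K27me3 cover, the longest without it, the most Ksu, the largest changes in either direction, treatment-only patterns, neighbours within 100 kb, the longest peaks, the longest and shortest members, and the richest and poorest promoters in CG. Others were named after their values were seen, as examples of a channel class or a comparison. The members, gene lists and rules were chosen with earlier results of these data known. Alternatives were equal numbers of peaks, a common floor, the 50% of peaks with most signal, flanks of 5 kb, 10% cover, another pseudocount (0.1), no filter, each replicate left out and a replicate block. A base of the same length classes was added after the data were seen. Of the 96 genes, 14 overlap another protein-coding gene, where a peak cannot be assigned to either. P-values measure the spread between 2 libraries per group, moderated over all genes tested. A group at 0 in both libraries adds no spread of its own. Results for some single genes are not reported here.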

Additional observations from a re-analysis of the deposited data

How the results depend on the processing

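Peak lists with floors that differ between libraries limit every comparison of treatments here, and with 2 libraries per group each result can rest on 1 library. Recomputed under the alternatives, 74 values of the main comparisons moved by less than 1 SD of the replicates (counts, by less than 1.5 times) and 38 by more. For single genes the numbers were 146 and 85.

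For H3K27me3, limma called 16 genes, 0 with the replicate block, 302 with equal numbers of peaks, 478 at a common floor, and between 0 and 438 when a replicate was left out (438 without control 1, 177 without control 2, 0 without either succinate replicate). The fit over all protein-coding genes could not be fitted for H3K27me3. Covered bases of the family differed by 2.18 points at a common floor, and the log2 ratio to all gene bodies by -0.17. Family genes overlapped in control alone numbered 2 with equal numbers of peaks, 0 with 5 kb flanks, and 1 to 14 when a replicate was left out (14 without control 2, 5 without succinate 1). Those overlapped in succinate alone numbered 1 with equal numbers and 3 at a common floor. When a replicate was left out they numbered 0 to 5 (5 without control 1). No share over all genes is given for these counts, so they are not read as a result about the family.

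For Ksu, covered bases differed by -0.44 points with equal numbers of peaks and -0.24 at a common floor, and the log2 ratio to all gene bodies by -0.24 against the same length classes. At the common floor control 2 kept only 2523 of its 380707 Ksu peaks. Family genes overlapped in control alone numbered 1 with equal numbers, with the 50% of peaks with most signal and with 10% cover, and 0 to 1 when a replicate was left out. Those in succinate alone numbered 3 with equal numbers and at a common floor, and 5 with the top 50%. They numbered 2 with 5 kb flanks, 15 with 10% cover, and 2 to 24 when a replicate was left out (24 without control 2). With all peaks 7.65% of all genes were overlapped in succinate alone. Under the alternatives no share over all genes is given, so these Ksu counts are not read as a result about the family. Limma called 0 genes, also with the replicate block, and 24 to 2571 when a replicate was left out (2571 without control 2, 155 without control 1, 24 without succinate 1, 27 without succinate 2). In these fits the lone library of a group was taken to vary like the other group. H3K27me3 bases under Ksu differed by 1.90 points with equal numbers and 1.33 at a common floor. The causes of these changes were not tested.

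Replicate numbers were not taken to pair control with succinate libraries, since the labels do not say that a number marks a shared batch and there are 2 pairs per antibody. The third comparison did match an H3K27me3 with a Ksu library by number, and the other matchings were not computed. Deviations of same-numbered libraries correlated at 0.448 (H3K27me3) and 0.147 (Ksu) across genes, and with the replicate block the smallest adjusted p of a family gene was 0.147 for H3K27me3 and 0.0938 for Ksu.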
